A study of Mus musculus with 3 samples.

Results

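The 10 genes described here encode the machinery that loads peptides on classical major histocompatibility complex (MHC) class I molecules. They are H2-K1, H2-D1, B2m, Tap1, Tap2, Tapbp, Psmb8, Psmb9, Psmb10 and Nlrc5, and they were taken by symbol from the 32285 genes in the files. The choice went by symbol and set no expression threshold, but earlier results of these data were known when it was made. All 10 were listed once, and each had counts in all 3 libraries. The libraries hold bone marrow cells from the femur and tibia of male mice aged 6 weeks. Of the libraries, 2 carry Ep300-Znf384-V5-HA, a fusion of Ep300 with Znf384 bearing V5 and HA tags, and 1 is labelled wild type. Each library joined 5000 live sorted marrow cells with 5000 live cells depleted of lineage-marked cells, so class sizes do not mirror whole marrow. The labels give neither the strain, and so no MHC haplotype, nor the promoter or copy number of the fusion allele. If haplotypes differed between libraries, counts of the H2-K, H2-D and H2-Q genes would also depend on how well each allele matches the reference, and this was not tested. They also do not say whether libraries came from separate animals, so p-values measure only the spread between libraries, which may be technical.

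As background, class I molecules show peptides from inside the cell to CD8 T cells and to NK cells. The peptides are cut by the proteasome, in which the interferon-inducible subunits Psmb8, Psmb9 and Psmb10 can replace the constitutive Psmb5, Psmb6 and Psmb7. The Tap1 and Tap2 transporter carries the peptides into the endoplasmic reticulum, where tapasin (Tapbp) holds the transporter next to an empty class I heavy chain such as H2-K1 or H2-D1. The heavy chain reaches the surface only with the light chain B2m, and NLRC5 is the transactivator that drives transcription of most of these genes. In marrow, class I is present on nearly all nucleated cells and decreases as red cells mature.

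The 3 libraries held between 8122 and 9354 barcodes and between 93262028 and 111836603 unique molecular identifiers (UMIs), and 21639 cells were kept, with median depths of 7360, 10008 and 7430 UMIs in fusion 1, fusion 2 and wild type. Between 9 and 17 barcodes were shared by any pair of libraries. Over all cells Ep300 stood at 68.2 and 53.9 CPM in fusion (UMIs of a gene scaled to a common library total) and 85.5 in wild type, and Zfp384, the mouse gene for ZNF384, at 26.1 and 19.9 against 15.5. The 3' counts do not separate fusion from endogenous transcripts. With 1 wild-type library, genotype and that library cannot be told apart in any result below, and all cell classes share the same 3 libraries.

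Cells were clustered without the class I genes and without the other listed pathway genes, so levels of these genes did not shape the clusters. The naming of clusters as classes did use some listed pathway genes as markers, among them Irf8, Calr, Bst2 and Mki67. No class I presentation gene was among the markers. The clusters formed 16 classes, and each name means only that the cells resemble that type by markers. A Gata2 and Muc13 cluster and an Irf8 and H2-Aa cluster matched no marker list well enough to be named. Neutrophils were split into immature (Ngp, Ltf and Camp high), mature (Retnlg, Mmp9 and Cxcr2 high) and a transitional class with equally many immature and mature markers among its leading genes. Immature neutrophils came from clusters that all 3 libraries filled. Mature and transitional neutrophils came almost entirely from different clusters in the 2 genotypes. In the transitional class the main fusion cluster (543 and 463 cells in fusion 1 and fusion 2) scored highest for the immature marker list. The main wild-type cluster (483 cells) scored highest for the mature list. Class sums held 29 to 1732 cells and 160298 to 47837354 UMIs per library.

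Tapbp, H2-K1, H2-D1, Psmb8, Psmb9, Tap1 and Tap2 lie on chromosome 17 (GRCm38, GENCODE M21, all protein-coding). Tapbp is at chr17:33915899-33929292, H2-K1 at chr17:33996017-34000347 and H2-D1 at chr17:35262730-35267499. Psmb9 (chr17:34181987-34187764), Tap1 (chr17:34187553-34197225), Psmb8 (chr17:34197721-34201454) and Tap2 (chr17:34203527-34216321) stand side by side. Psmb9 and Tap1 overlap head to head, with RefSeq start sites 226 bases apart. B2m is at chr2:122147686-122153083, Nlrc5 at chr8:94434356-94527272 and Psmb10 at chr8:105935735-105938444. Whether the counting used strand is not known from the labels or headers. Reads from the overlaps of Psmb9 with Tap1 and of B2m with Patl2, and of Psmb8 and Tap2 with Gm20496, on the other strand, may therefore count for either gene. On the same strand Tapbp overlaps Zbtb22 and Nlrc5 overlaps Mir7072, and strand cannot separate reads there. Class I heavy chains resemble one another: within the last 500 bases of the transcripts, 2.19% of the 91-base windows of H2-K1 and 8.85% of those of H2-D1 also occur in another gene, mainly H2-Q10 and H2-Q1, against 0 for the other 8 genes.

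The promoters show which of 4 short motifs the heavy chains share and which of them B2m lacks at the spacing searched. The 200 bases before the RefSeq start (GRCm38.p6) are given 5′ to 3′ on the gene's strand for H2-K1 (chr17:34000348-34000547, minus strand), H2-D1 (chr17:35262894-35263093, plus), the non-classical chain H2-Q7 (chr17:35438955-35439154, plus), whose values are given further on, and B2m (chr2:122147487-122147686, plus). Capitals mark matches on either strand to a kB motif (GGG and TTCCC with any 2 bases between), GAANNGAA (the core of an interferon regulatory factor element), TGACG (the core of an X2 box) and CCAAT.
H2-K1: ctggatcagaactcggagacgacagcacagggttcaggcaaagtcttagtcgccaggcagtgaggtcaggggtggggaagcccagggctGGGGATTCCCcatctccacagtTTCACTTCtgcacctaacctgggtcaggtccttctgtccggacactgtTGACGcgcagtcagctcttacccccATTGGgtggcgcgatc
H2-D1: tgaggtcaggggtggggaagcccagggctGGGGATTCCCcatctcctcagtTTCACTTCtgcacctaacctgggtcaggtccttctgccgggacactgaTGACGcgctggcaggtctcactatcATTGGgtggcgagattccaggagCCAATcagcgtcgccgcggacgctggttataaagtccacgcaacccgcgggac
H2-Q7: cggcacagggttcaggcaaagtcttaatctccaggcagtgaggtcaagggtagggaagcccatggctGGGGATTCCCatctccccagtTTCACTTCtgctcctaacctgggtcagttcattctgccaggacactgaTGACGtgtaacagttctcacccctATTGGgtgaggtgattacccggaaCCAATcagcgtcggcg
B2m: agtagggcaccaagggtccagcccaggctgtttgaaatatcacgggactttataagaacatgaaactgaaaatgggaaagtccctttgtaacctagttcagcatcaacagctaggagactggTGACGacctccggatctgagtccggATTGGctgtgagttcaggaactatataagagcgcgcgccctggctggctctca
In the H2-K1 promoter the 4 matches start 111, 89, 41 and 16 bases before the RefSeq start, and in H2-D1 the same order begins at 171 bases and ends with a second CCAAT at 53. B2m has the X2 core at 78 bases and a CCAAT at 53, and no match to the kB or interferon strings as written above. Its window does hold gaaactgaaa and gggaaagtccc, which resemble these strings at a wider spacing and were not counted. The search therefore does not show that B2m lacks such elements. Of 27025 RefSeq promoters of this length, 1.18% hold the kB motif, 13.9% the interferon element core, 15.8% the X2 core and 30.02% a CCAAT, and 0.0259% (7 promoters) hold all 4 kinds. Of the 8 class I presentation genes with a promoter entry, H2-K1 and H2-D1 hold all 4. A match is a description of letters, not evidence of a bound factor.

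Averaged over the 10 genes as standardized levels, expression was highest in T and NK and in plasmacytoid dendritic cells and lowest in erythroblasts and immature neutrophils. Levels are CPM scaled by trimmed mean of M-values (TMM), averaged over 3 libraries, and are compared within a gene. H2-K1 ran from 1851 CPM in T, NK and innate lymphoid cells and 1449.7 in plasmacytoid dendritic cells down to 173.5 in transitional neutrophils, 158 in immature neutrophils and 116 in erythroblasts, a 15.9-fold span. Between these lay B cells (1104), stem to lymphoid progenitors (891), the Gata2 and Muc13 cluster (772), pro-B cells (736), monocytes (661), megakaryocytes (647), granulocyte-monocyte progenitors (541), basophils and mast cells (523), the Irf8 and H2-Aa cluster (484), erythroid progenitors (413) and mature neutrophils (290.4). Of 15 neighbouring steps in that order, 5 were wider than the spread of the libraries, meaning that the 3 values of one class all lay above those of the next.

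H2-D1 departed from this order in mature neutrophils, where it was highest of all classes at 1854 CPM, while H2-K1 there exceeded only its levels in transitional and immature neutrophils and erythroblasts. H2-D1 was lowest in erythroblasts (234 CPM), a 7.93-fold span, and mature neutrophils were not apart from plasmacytoid dendritic cells (1557 CPM). B2m had the narrowest span, 4.78-fold, from 2122 CPM in T, NK and innate lymphoid cells to 444 in erythroblasts. Tap1 had the same highest and lowest classes as H2-K1, at 124 and 12.5 CPM. Tap2 was highest in T, NK and innate lymphoid cells (111 CPM), and Tapbp in plasmacytoid dendritic cells (323 CPM), where it exceeded the next class beyond the spread of the libraries.

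Psmb8 had the widest span between cell classes of the 10 genes. Psmb8, which replaces the chymotrypsin-like subunit Psmb5, ranged from 648 CPM in plasmacytoid dendritic cells to 4.07 in erythroblasts, where it rested on 4, 11 and 12 UMIs in fusion 1, fusion 2 and wild type. Psmb9 spanned 28.1-fold and Psmb10 18.3-fold between the same classes. Nlrc5 was highest in T, NK and innate lymphoid cells (49.5 CPM), with plasmacytoid dendritic cells next at 19.9, and it rested on 3 to 7 UMIs per library in immature neutrophils. Over the 16 class means, which share libraries, Pearson's r of a gene with the mean of the other 9 was highest for Tap1 (0.959), B2m (0.935) and H2-K1 (0.922) and lowest for Tapbp (0.595), Tap2 (0.664) and H2-D1 (0.680).

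**Figure D1:**
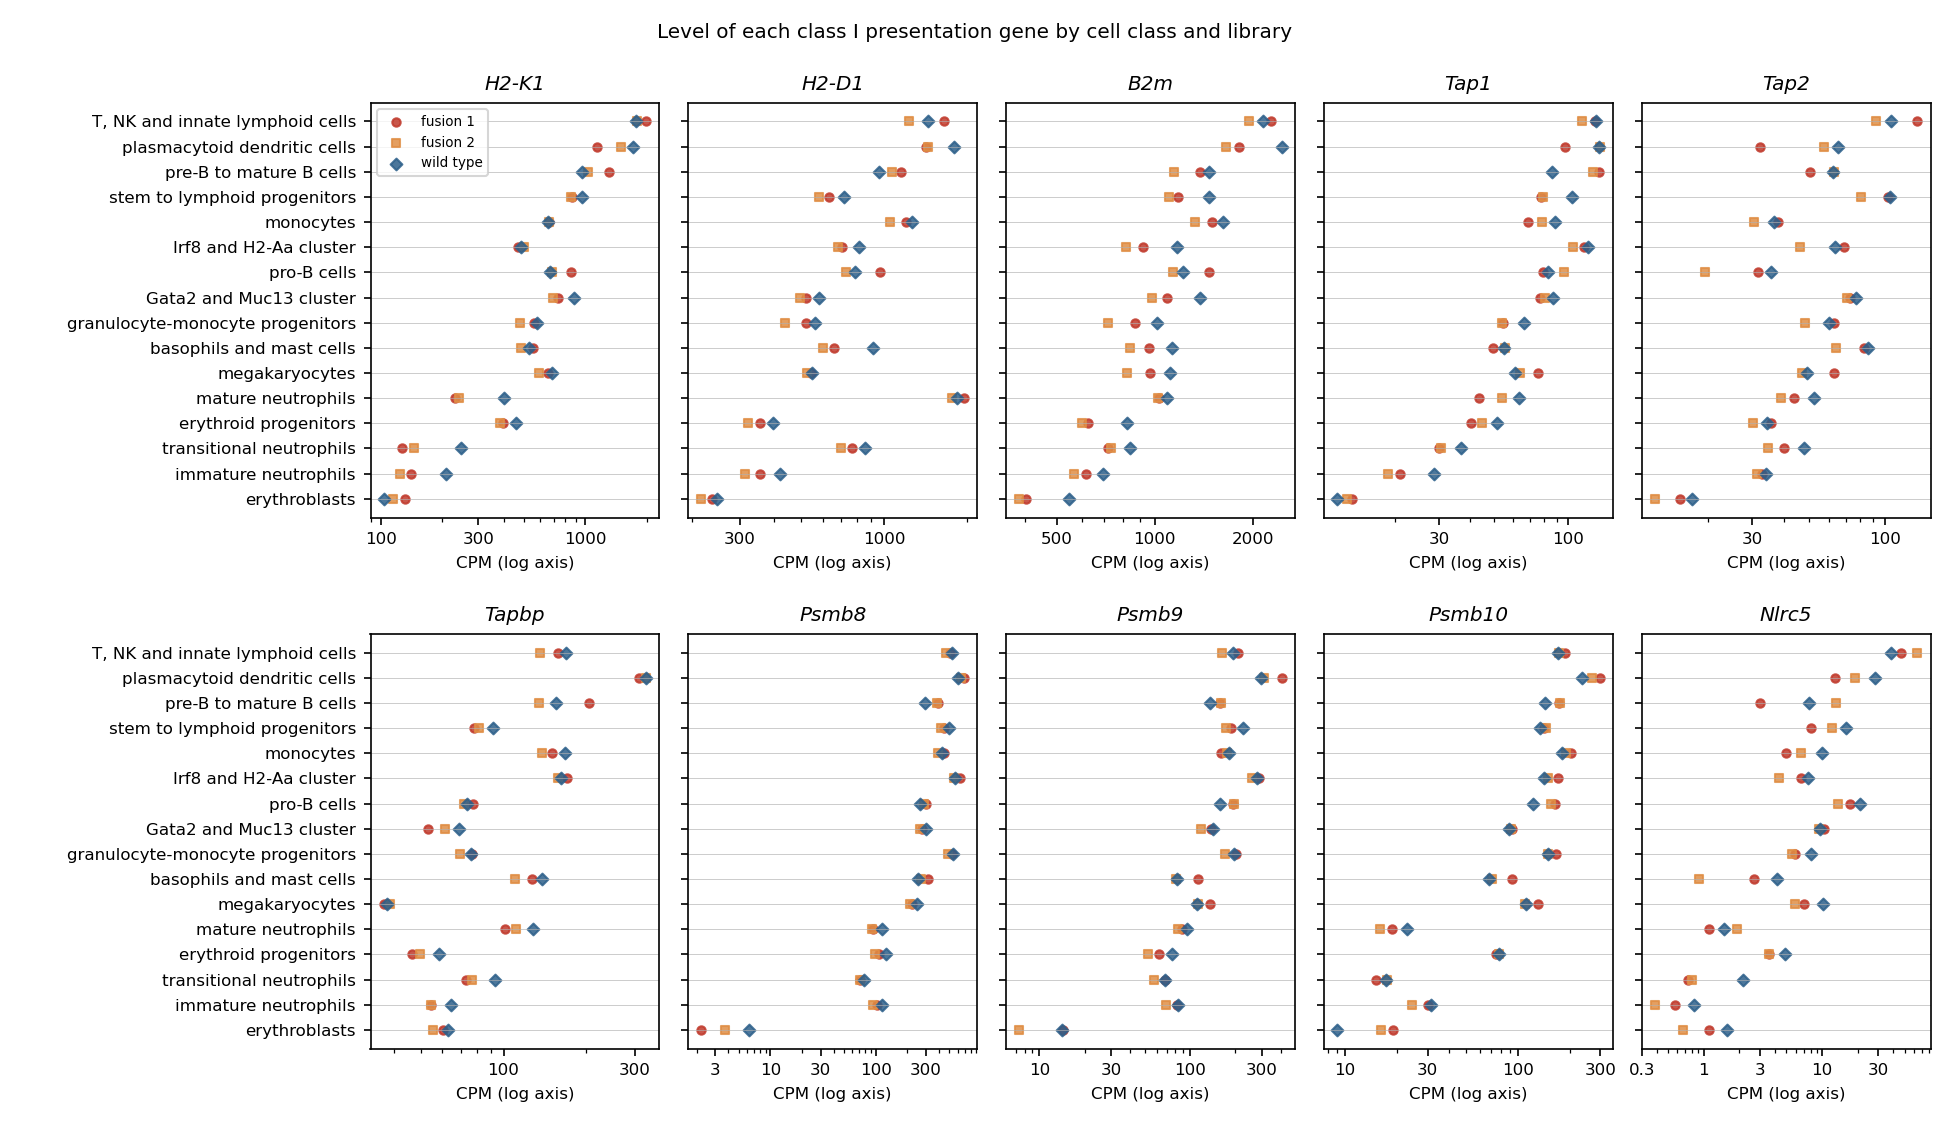
Level of the 10 genes (horizontal, CPM, log axis) in each of 16 cell classes, with 1 point per library (circles fusion 1, squares fusion 2, diamonds wild type). Classes are ordered by the genes' mean standardized level: most panels fall from top to bottom, and H2-D1 is highest in mature neutrophils (mean 1854 CPM).

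Fusion was then set against wild type within each class. H2-K1 was lower in mature and transitional neutrophils, and these were the 2 of 152 tested gene and class combinations that passed edgeR's quasi-likelihood test at an adjusted p under 0.05. Over all genes and classes 2.27% of tests passed, 1.54% as lower, so the number of calls among the 10 genes was no larger than the background. None passed as higher, and DESeq2 called 0 in either direction. At an unadjusted p under 0.05 there were 11, of which Psmb10 in erythroblasts was the 1 with a higher level in fusion. Nlrc5 was tested in 8 classes and had too few counts for the fit in the other 8, while the other 9 genes were tested in all 16.

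The sides of the libraries gave a broader shift of small size. In 90 of 152 combinations (59.2%) both fusion libraries lay below wild type, against 34.8% over all genes, and in 29 both lay above, against 35% over all genes. The median log2 fold change was -0.14, against 0.00 over all genes. Of the tested genes, all 9 had both fusion libraries below wild type in immature neutrophils, 8 of 9 in mature (36.8% of all genes there) and transitional neutrophils (36.7%), and 9 of 10 in erythroid progenitors (36.3%) and in stem to lymphoid progenitors (35.4%). The share in immature neutrophils over all genes was 36.3%. In B cells 6 of 9 genes were above wild type in both fusion libraries and 1 below, with a median of 0.24, where 31.7% of all genes lay above and 31.7% below and no class I gene passed. In pro-B cells 2 of 10 lay below and 4 above, where 31.9% of all genes lay below and 32% above.

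The background of calls was uneven. Beside the shares given with each result below, 1.64% of genes passed in erythroblasts, 1.01% in the Irf8 and H2-Aa cluster (0.564% lower, 0.446% higher), 0.589% in megakaryocytes (0.536% lower, 0.0526% higher) and 0.0415% in granulocyte-monocyte progenitors (0.0332% lower, 0.00831% higher). In monocytes 2.2% passed and in B cells 0.956% as lower. Calls of higher genes made up 1.1% in basophils and mast cells, 0.845% in immature and 3.16% in mature neutrophils. Both fusion libraries lay below wild type for 8 of 10 class I genes in the Gata2 and Muc13 cluster (37.1% of all genes), for 3 of 9 in the Irf8 and H2-Aa cluster (32.5%) and for 4 of 9 in plasmacytoid dendritic cells (30.1%).

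**Figure D2:**
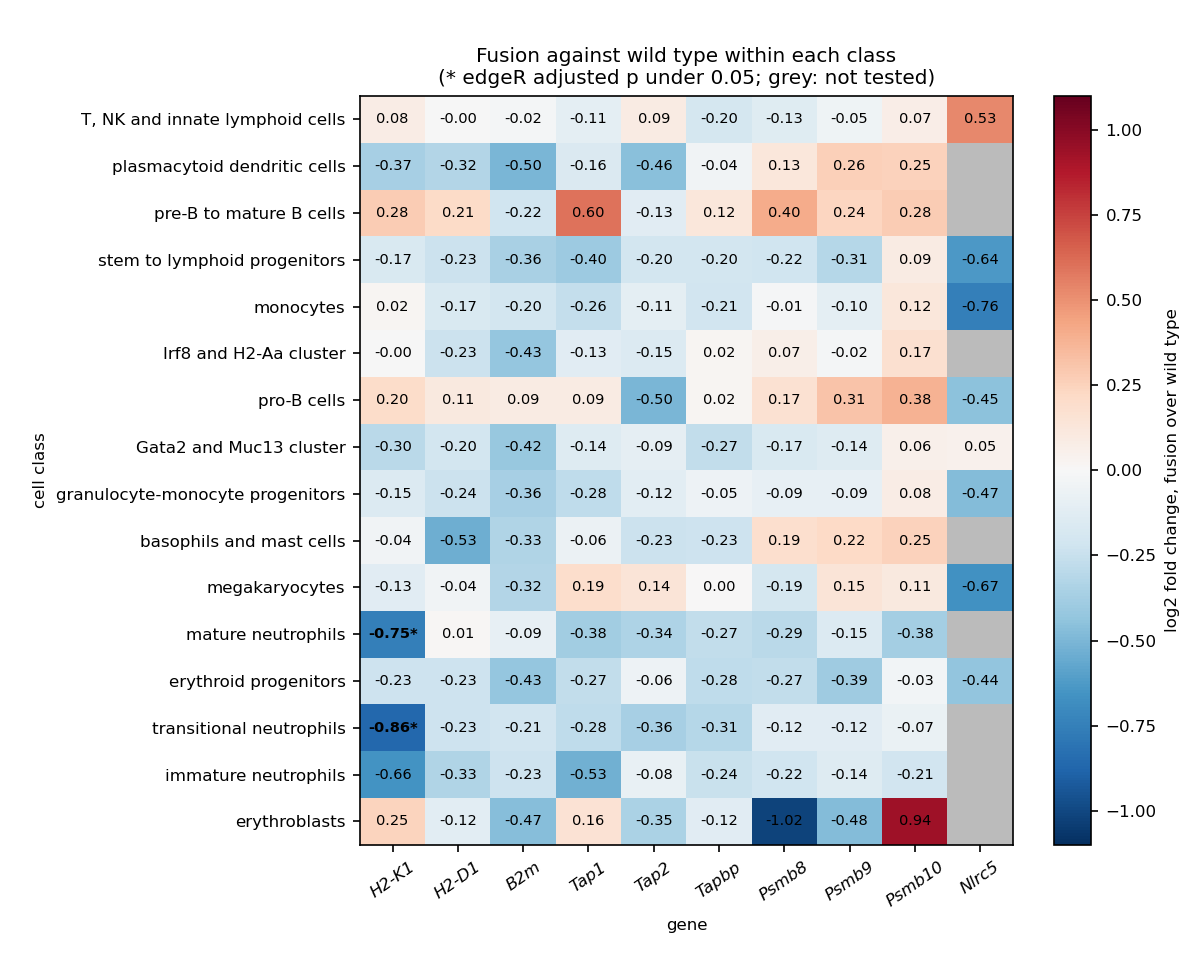
Log2 fold change, fusion over wild type, of each gene (columns) in each class (rows), where blue is lower in fusion, red is higher, grey was not tested and an asterisk marks an edgeR adjusted p under 0.05. The 2 asterisks are H2-K1 in mature (-0.75) and transitional (-0.86) neutrophils, and the B cell row is mostly red.

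H2-K1 encodes a classical heavy chain. In mature neutrophils it stood at 230.1 CPM in fusion 1, 242.5 in fusion 2 and 398.6 in wild type. Both fusion libraries were low and close together, and the groups did not overlap. H2-K1 fell by 0.75 ± 0.20 on the log2 scale (edgeR adjusted p = 0.0123), where ± gives a standard error (SE) derived from the edgeR F statistic. In that class 8.23% of genes passed and 5.07% passed as lower. In transitional neutrophils the values were 126.6 and 146.0 CPM against 248.0, again without overlap, and H2-K1 fell by 0.86 ± 0.20 (edgeR adjusted p = 0.0075, where 3.83% of genes passed and 2.43% as lower). In immature neutrophils they were 141 and 124 CPM against 209, a log2 fold change of -0.66 ± 0.16 that missed the threshold (edgeR adjusted p = 0.0695, where 2.07% of genes passed).

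The 2 calls depended on the analysis, though H2-K1 was lower in fusion in each tested fit of the 3 neutrophil classes. In mature neutrophils 5 of 9 fits called it, with adjusted p from 0.0072 to 0.289 (DESeq2) and log2 fold changes from -0.76 to -0.55. In transitional neutrophils 3 of 7 called it, with adjusted p from 0.0011 to 0.583 (DESeq2) and log2 fold changes from -0.87 to -0.54. In immature neutrophils 4 of 10 called it, with adjusted p from 0.0099 to 0.894 and log2 fold changes from -0.69 to -0.45.

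Because mature neutrophils fell in different clusters by genotype, H2-K1 was also read cluster by cluster, as plain CPM. The wild-type cells of the class lay in a cluster at 379.9 CPM. The fusion cells lay in 3 clusters. In the 2 largest they held 287 and 255 CPM, and 219.6 and 183 CPM, in fusion 1 and fusion 2, below the wild-type value. In the smallest, with 245 and 144 cells and led by Il1b, they held 324 and 432 CPM, on both sides of it. In the transitional class the main fusion cluster held 142 and 138 CPM and the main wild-type cluster 231. The fusion cluster there best matched immature markers and the wild-type cluster mature markers, and the part of this stage difference was not tested. The immature clusters are shared by the libraries: in the 1 led by Ngp and Ltf, H2-K1 stood at 131 and 99.04 CPM against 154, and in the 1 led by Fcnb and Camp at 168 and 126 against 227. Both fusion libraries were thus below wild type within each shared immature cluster.

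Markers of other cells and stages moved with genotype in these classes, and their part in the result was not tested. The 18 T, NK and innate lymphoid markers, whose cells have the highest H2-K1, summed to 25.4 and 17.6 CPM in fusion and 60.2 in wild type in mature neutrophils, with Ncr1 at 0 in all libraries, and to 27.3 and 18.7 against 59.5 in transitional neutrophils, with Trac, Cd8a and Ncr1 at 0. In immature neutrophils the sums were 216 and 176 against 304, with Cd3e and Cd8a at 0. The 9 detected granulocyte-monocyte progenitor markers summed to 6873 and 6756 CPM against 11505 in immature neutrophils. The 12 immature neutrophil markers summed to 23458 and 22819 CPM against 15948 in mature neutrophils.

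The ratio of the heavy chains within a library gives a reading that does not depend on depth or scaling. It is used to compare libraries, not to say which gene is more expressed. In mature neutrophils H2-K1 made up 10.5% (exact 95% interval 9.95 to 11.2) and 12.1% (11.3 to 12.8) of the UMIs of both genes in fusion, and 17.8% (16.9 to 18.7) in wild type. In transitional neutrophils the shares were 14.2% and 17.4% against 22.5%, and in immature neutrophils 28.5% and 28.3% against 33.2%. In these 3 classes the intervals of both fusion libraries lay below that of wild type. The size depended on the clustering: the difference of -4.79 percentage points in immature neutrophils was -7.69 and -7.40 at Leiden resolutions 0.5 and 2, and that of -6.70 in transitional neutrophils was -10.6 at resolution 2. Intervals cover counting error only, and the exact two-sided permutation test over 3 libraries cannot give a p below 0.3333, the value it gave in these 3 classes.

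Outside neutrophils the share was lower in both fusion libraries in 2 more classes and higher in 7, and 1 of the 7 had separate intervals. That class was basophils and mast cells, with 45.7% and 44.6% in fusion against 37.0% in wild type. Within the shared immature neutrophil clusters the share was 23.8% and 22.6% against 27.5%, and 31.04% and 32.2% against 35.7%, and in each cluster the interval of 1 fusion library overlapped that of wild type. In the 3 fusion clusters of mature neutrophils it ran from 9.91% to 17.2%, against 17.8% in the wild-type cluster.

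Whether the H2-K1 difference itself varied by class was tested for every pair of classes with a genotype-by-class term, with libraries as a block (1.77% of all such gene tests passed). H2-K1 passed in 23 of 120 pairs. In all 39 pairs of a neutrophil class with a class outside neutrophils, the log2 fold change was lower in the neutrophil class, and 20 passed. Immature neutrophils passed against 11 of 13 other classes, with differences from -0.93 to -0.25, the 2 exceptions being plasmacytoid dendritic cells and the Gata2 and Muc13 cluster. Transitional neutrophils passed against 8 of 13. Mature neutrophils passed against 1 of 13, erythroblasts (-0.95 ± 0.26, edgeR adjusted p = 0.0257), with differences over the 13 from -0.99 to -0.34. This pair test was simulated only for a class against an unchanged copy of itself, with a common dispersion for all genes. Pairs of different classes were not simulated. In the simulated counts the pair test recovered log2 changes of 2 for 78.6% of genes in erythroid progenitors. It recovered 15.2% in mature neutrophils and 0.0% in plasmacytoid dendritic cells, so a pair that missed with these classes does not show equal effects. None of the 3 pairs among neutrophil classes passed in edgeR (0 at an unadjusted p under 0.05). For Psmb10 the effect was also lower in the neutrophil class in all 39 pairs, and 0 of its 120 pairs passed (12 at an unadjusted p under 0.05).

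Outside neutrophils H2-K1 passed in none of 13 classes in edgeR (0 at an unadjusted p under 0.05, and 0 by DESeq2), with both fusion libraries below wild type in 6, above in 5 and overlapping in 2. The lowest log2 fold changes were in plasmacytoid dendritic cells (1142 and 1499 CPM against 1709, -0.37 ± 0.29) and the Gata2 and Muc13 cluster (739 and 695 CPM against 882, -0.30 ± 0.21). Wild type lay above both fusion libraries in these classes. In monocytes it was 668 and 662 CPM in fusion and 654 in wild type. In B cells it was 1314 and 1033 CPM against 965. The T, NK and innate lymphoid class had 1989 and 1783 CPM against 1781. Both fusion libraries lay above wild type in these 3 classes, and none passed.

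**Figure D3:**
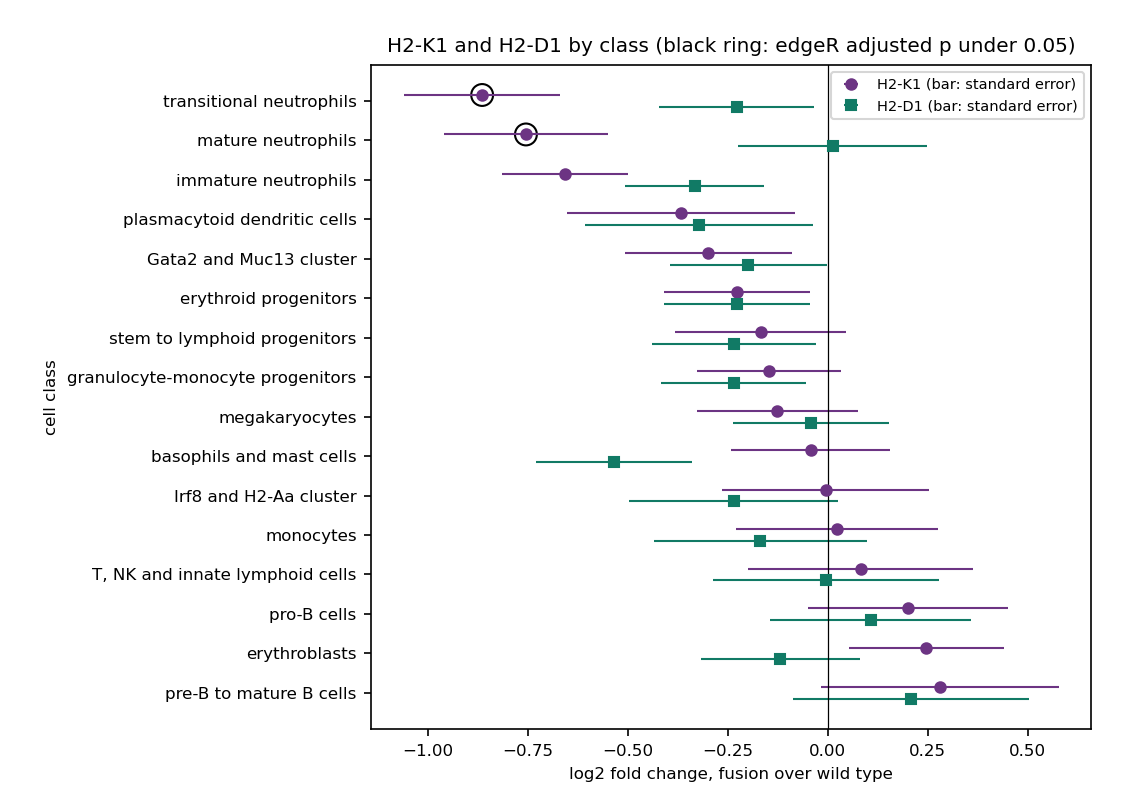
Log2 fold change, fusion over wild type, of H2-K1 (circles) and H2-D1 (squares) in each class. Bars are 1 standard error, derived from the edgeR F statistic, and black rings mark an edgeR adjusted p under 0.05. H2-K1 in the 3 neutrophil classes lies at -0.86, -0.75 and -0.66, while H2-D1 in mature neutrophils lies at 0.01.

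H2-D1 encodes the other classical heavy chain in the reference annotation. In mature neutrophils it stood at 1951 and 1769 CPM in fusion and 1844 in wild type, which overlap (log2 fold change 0.01 ± 0.24). In transitional neutrophils it was 767 and 695 against 856 CPM, and in immature neutrophils 354 and 313 against 420.0 CPM. Both fusion libraries were lower there, with log2 fold changes of -0.23 ± 0.19 and -0.33 ± 0.17 that did not pass. The lowest log2 fold change was in basophils and mast cells, with 656 and 602 CPM against 909.8 (-0.53 ± 0.20, edgeR adjusted p = 0.153). Its genotype effect in that class differed from 7 others in the pair test, among them B cells (difference 0.74 ± 0.18, edgeR adjusted p = 0.0072) and pro-B cells (0.60 ± 0.13, edgeR adjusted p = 0.000335). In 12 of 16 classes wild type exceeded both fusion libraries for H2-D1, which 6.16% of the 4270 genes tested in every class matched or passed.

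B2m, the light chain common to all class I molecules, was the most even of the genes in direction. Both fusion libraries were below wild type in 14 of 16 classes and overlapped it in T, NK and innate lymphoid cells and in pro-B cells. Of genes tested in every class, 2.06% lay below wild type in at least 14. The differences were small, with a median log2 fold change of -0.32, and none passed in edgeR (1 at an unadjusted p under 0.05, and 0 calls by DESeq2). In erythroblasts B2m was 403 and 384 CPM against 545 (-0.47 ± 0.21, edgeR adjusted p = 0.385). In plasmacytoid dendritic cells it was 1819 and 1656 against 2459 CPM (-0.50 ± 0.28, edgeR adjusted p = 0.999). Erythroid progenitors held 625 and 597 against 822 CPM (-0.43 ± 0.20, edgeR adjusted p = 0.574). The groups did not overlap in these 3 classes.

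In the pair test of B2m the classes that differed all involved pro-B cells. The B2m values there were 1467 and 1139.9 CPM against 1220.3, with wild type between the fusion libraries. The genotype effect was higher in pro-B cells than in stem to lymphoid progenitors by 0.44 ± 0.10 (edgeR adjusted p = 0.000693). It also passed against the Gata2 and Muc13 cluster, granulocyte-monocyte progenitors, megakaryocytes and basophils and mast cells. These 5 pairs were all that passed for B2m.

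Among the genes of peptide transport and loading, none passed within a class in edgeR. At an unadjusted p under 0.05 there were 2 combinations for Tap1, 0 for Tap2 and 1 for Tapbp, and DESeq2 called none. Tap1, a subunit of the peptide transporter, was 20.9 and 18.6 CPM in fusion immature neutrophils against 28.6 (-0.53 ± 0.17, edgeR adjusted p = 0.206). In stem to lymphoid progenitors it was 77.6 and 78.8 CPM against 103 (-0.40 ± 0.17, edgeR adjusted p = 0.188). In B cells it was 134 and 126 CPM against 85.8 (0.60 ± 0.31, edgeR adjusted p = 0.685). The groups did not overlap in these 3 classes, and the B cell effect differed from that of immature neutrophils by 1.13 ± 0.31 (edgeR adjusted p = 0.0272) and of stem to lymphoid progenitors by 0.99 ± 0.29 (edgeR adjusted p = 0.0371).

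Tap2, the partner subunit, was below wild type in both fusion libraries in 9 classes and overlapped it in 7. Its log2 fold changes ran from -0.50 (pro-B cells, 31.7 and 19.5 CPM against 35.5) to 0.14 (megakaryocytes, 62.95 and 47.1 against 49.3). Tapbp, the tapasin that bridges transporter and heavy chain, was below wild type in 10 classes and overlapped it in 6. In erythroid progenitors Tapbp was 46.5 and 49.8 CPM against 58.5 (-0.28 ± 0.12, edgeR adjusted p = 0.517). No class had both fusion libraries above wild type for Tap2 or Tapbp. Over all gene and class tests, both fusion libraries were below in 34.8% and above in 35%.

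The partners listed for loading and trimming, chaperones and peptidases of the endoplasmic reticulum, passed in transitional neutrophils, where 3 of 8 were higher (1.41% of genes were called higher there). Hspa5 (BiP, the main chaperone of that compartment) was 398 and 292 CPM against 126, higher by 1.45 ± 0.23 on the log2 scale (edgeR adjusted p = 0.000132). Pdia3 (ERp57, a disulphide isomerase of the loading complex) was 243 and 211 CPM against 97.2, higher by 1.22 ± 0.22 (edgeR adjusted p = 0.000498). Calr (calreticulin, which retains class I chains until loaded) was 244 and 218 CPM against 124, higher by 0.90 ± 0.21 (edgeR adjusted p = 0.0101). Fusion lay above wild type without overlap for these 3 genes. In that class the immature neutrophil markers summed to 115944 and 110499.95 CPM in fusion and 88588 in wild type, and their part was not tested. Over all classes the list had 128 tests with a median of -0.16.

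None of the immunoproteasome subunits passed within a class in edgeR, with 2 combinations at an unadjusted p under 0.05 (Psmb9 in erythroid progenitors and Psmb10 in erythroblasts) and 0 calls by DESeq2. Psmb8 was below wild type in both fusion libraries in 10 classes and above in 4 (34.8% and 35% of all gene and class tests). In stem to lymphoid progenitors it was 442 and 416 CPM against 501 (-0.22 ± 0.19), and in erythroid progenitors 108 and 97.9 against 125 (-0.27 ± 0.14). In erythroblasts its log2 fold change of -1.02 ± 0.76 rested on few UMIs. Psmb9, which replaces Psmb6, was 62.3 and 53.0 CPM against 75.5 in erythroid progenitors (-0.39 ± 0.14, edgeR adjusted p = 0.332). Psmb10, which replaces Psmb7, went the other way, with both fusion libraries above wild type in 11 classes and below in 3 (10.8% of genes tested in every class were above in at least 11). In erythroblasts Psmb10 was 18.8 and 16.04 CPM against 8.96 (0.94 ± 0.42, edgeR adjusted p = 0.412), from 34, 48 and 17 UMIs.

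Set against the subunit it replaces, Psmb8 was a smaller part of the pair in fusion in most classes. Its share of Psmb8 and Psmb5 UMIs was below wild type in both fusion libraries in 12 of 16 classes and above in 1. In erythroid progenitors the share was 24.2% (23.6 to 24.8) and 24.4% (23.8 to 25.0) against 30.4% (29.4 to 31.4). In stem to lymphoid progenitors it was 63.7% and 64.7% against 71.5%, and in the Gata2 and Muc13 cluster 56.1% and 56.4% against 64.2%. The exact intervals of both fusion libraries lay below that of wild type in these 3 classes and in granulocyte-monocyte progenitors (61.2% and 59.2% against 64.2%), immature neutrophils (34.8% and 32.1% against 39.7%) and transitional neutrophils (37.3% and 41.1% against 52.6%).

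The share of Psmb9 in Psmb9 and Psmb6 was below in 10 classes and above in 3. Its intervals were apart in 4 of the same classes: erythroid progenitors (15.5% and 15.1% against 21.7%), stem to lymphoid progenitors (44.2% and 44.4% against 52.5%), the Gata2 and Muc13 cluster (35.7% and 36.4% against 44.0%) and immature neutrophils (36.7% and 33.8% against 42.2%). The share of Psmb10 in Psmb10 and Psmb7 was below in 3 classes and above in 8, with no class apart. No exact permutation p of these shares can be lower than 0.3333, and the leave-one-out values moved the classes above or below as given in the closing part.

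**Figure D4:**
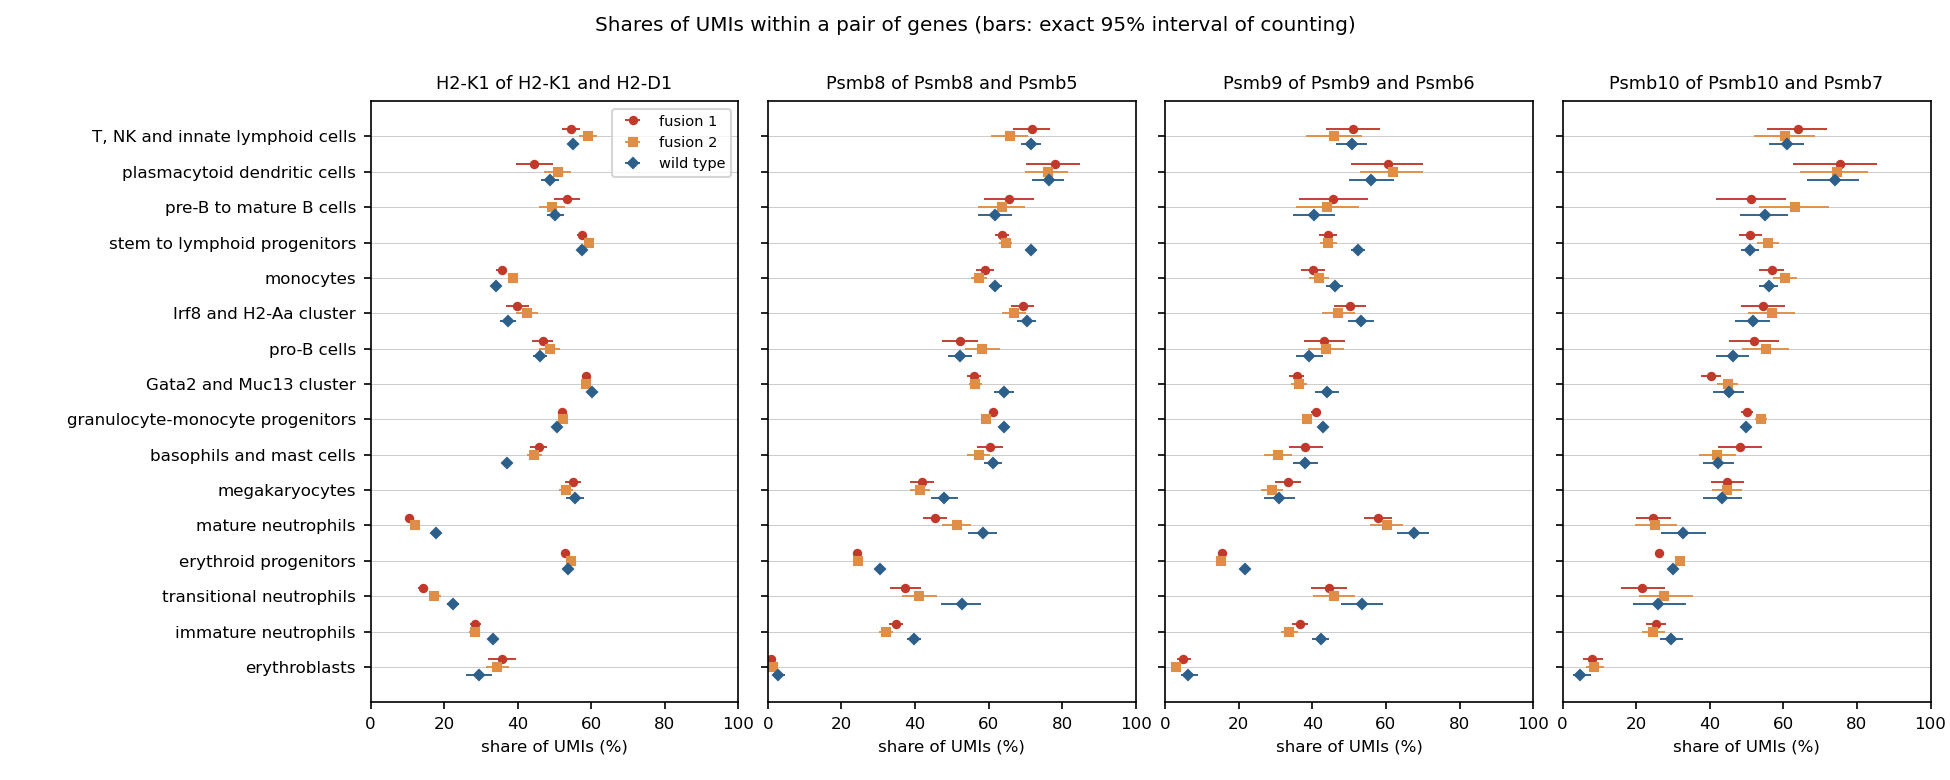
Share of UMIs (percent) of H2-K1 in H2-K1 and H2-D1, Psmb8 in Psmb8 and Psmb5, Psmb9 in Psmb9 and Psmb6, and Psmb10 in Psmb10 and Psmb7, by class and library (circles fusion 1, squares fusion 2, diamonds wild type), with exact 95% counting intervals. Wild type lies to the right of both fusion libraries in the 3 neutrophil rows of the H2-K1 panel and in 12 of 16 rows of the Psmb8 panel.

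The denominators were not level either. Psmb5 and Psmb6, constitutive subunits, had both fusion libraries above wild type in 14 of 16 classes each, with median log2 fold changes of 0.21 and 0.21 (1.48% of genes tested in every class were above in at least 14). Psmb7 was above in 4 and below in 0, with a median of 0.05. Of the 19 listed genes of the constitutive proteasome and its activators, none passed in 304 tests in edgeR (4 lower and 6 higher at an unadjusted p under 0.05), and the median was 0.09. Psme1, a subunit of the interferon-inducible PA28 activator, had both fusion libraries below wild type in 13 classes and a median of -0.27 (3.68% of genes were below in at least 13). Its partner Psme2 had both below in 4 classes and above in 8, with a median of 0.03.

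Nlrc5, the class I transactivator, was below wild type in both fusion libraries in 6 of the 8 classes with enough counts for a test, above in 1 and overlapping in 1 (34.8% of all gene and class tests were below). Of the 8 classes with too few counts, 6 were below and 2 overlapped. Counts were low, at 1 to 184 UMIs per library and class. In stem to lymphoid progenitors Nlrc5 was 8.01 and 12.2 CPM against 15.9, a log2 fold change of -0.64 ± 0.27 (edgeR adjusted p = 0.217). In granulocyte-monocyte progenitors it was 5.97 and 5.603 CPM against 8.02 (-0.47 ± 0.20, edgeR adjusted p = 0.779). The exception was T, NK and innate lymphoid cells, with 46.2 and 63.9 CPM against 38.3 (0.53 ± 0.34, edgeR adjusted p = 0.842). The groups did not overlap in any of these 3 classes, and Nlrc5 passed in 0 of 8 classes in edgeR (1 at an unadjusted p under 0.05, and 0 by DESeq2).

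Other factors that bind class I promoters or act on them were nearly even. Of 14 listed factors, 2 of 215 tests passed, a share below the 2.27% over all tests, and both were lower calls of Irf8, an interferon regulatory factor of myeloid and lymphoid cells. In mature neutrophils Irf8 was 13.9 and 6.34 CPM in fusion against 29.5, and fell by 1.51 ± 0.32 on the log2 scale (edgeR adjusted p = 0.000807, where 5.07% of genes passed as lower). Irf8 in the T, NK and innate lymphoid class was 37.8 and 75.9 CPM against 137, and fell by 1.25 ± 0.30 (edgeR adjusted p = 0.0042, in a class where 1.48% of genes passed and 1.05% as lower). Both fusion libraries lay below wild type in each class. The median of the list was -0.01.

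Non-classical class I chains are related heavy chains with narrower roles. Of 131 tests 14 passed as lower, in 7 classes (1.54% of all gene and class tests passed as lower), and none passed as higher in edgeR (1 at an unadjusted p under 0.05). H2-Q7 (part of the Qa-2 antigen), whose promoter is shown above beside those of H2-K1 and H2-D1, accounted for 7 of the 14. Both fusion libraries lay below wild type for H2-Q7 in 14 of 16 classes (2.06% of genes tested in every class were below in at least 14). It was 112 and 104 CPM against 197 in stem to lymphoid progenitors, where it fell by 0.87 ± 0.17 (edgeR adjusted p = 9.6e-05, with 5.46% of genes passing and 3.74% as lower). It was 239 and 279.8 CPM against 595 in plasmacytoid dendritic cells, where it fell by 1.19 ± 0.30 (edgeR adjusted p = 0.0219, with 0.42% passing and 0.238% as lower). It was 64.8 and 57.9 CPM against 109 in erythroid progenitors, where it fell by 0.83 ± 0.13 (edgeR adjusted p = 0.0116, with 1.13% passing and 0.812% as lower). The groups did not overlap in these classes.

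H2-Q7 also fell in the Gata2 and Muc13 cluster, the Irf8 and H2-Aa cluster, and immature and mature neutrophils. H2-Q6, its near copy, fell in 3 classes, but 26.6% of the 91-base windows at its 3' end occur in another gene, mostly H2-Q7, so counts of the pair are uncertain. In mature neutrophils H2-Q10, a secreted class I chain, was 133 and 127 CPM against 255, and fell by 0.97 ± 0.20 (edgeR adjusted p = 0.000558). H2-T22 in the same class was 21.9 and 21.5 CPM against 37.9, and fell by 0.80 ± 0.25 (edgeR adjusted p = 0.0331). In stem to lymphoid progenitors H2-Q4 and H2-M3 passed too, with log2 fold changes of -0.75 and -0.77.

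Genes of the interferon response outside class I held most of the calls among the lists. Of 286 tests over 23 genes, 51 passed as lower, in 8 classes, and 2 as higher. Over all gene and class tests 1.54% passed as lower and 0.737% as higher. The median was -0.57, and in 72.7% both fusion libraries were below wild type (34.8% over all gene and class tests). In mature neutrophils 14 of 21 passed as lower (5.07% of genes were lower there), with a median of -1.21. Transitional neutrophils had 13 of 21 (2.43%), with a median of -1.70. Stem to lymphoid progenitors had 11 of 23 (3.74%), with a median of -0.82. Erythroid progenitors had 4 of 23 (0.812%), immature neutrophils 3 of 20 (1.23%) and erythroblasts 3 of 16 (1.35%). Monocytes had 2 of 22 (1.45%) and pro-B cells 1 of 13 (0.432%). The same fits gave class I medians of -0.29, -0.23 and -0.23 in mature and transitional neutrophils and stem to lymphoid progenitors.

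Single genes show the size. In mature neutrophils Zbp1, a sensor of Z-form nucleic acids, was 2.65 and 4.69 CPM in fusion against 48.0, and fell by 3.73 ± 0.32 (edgeR adjusted p = 7.2e-12). Ifit3, an antiviral RNA-binding protein gene, was 2.87 and 6.06 CPM against 36.1 there, and fell by 3.05 ± 0.34 (edgeR adjusted p = 6.3e-09). In stem to lymphoid progenitors Ifi27l2a was 27.6 and 59.3 CPM against 164, and fell by 1.90 ± 0.18 (edgeR adjusted p = 8.4e-18). The fusion libraries were each far below wild type for these 3 genes, and fusion 2 lay above fusion 1. The calls in the other direction were Isg15 in B cells (23.8 and 65.7 CPM against 8.92, higher by 2.33 ± 0.64, edgeR adjusted p = 0.0270, where 0.207% of genes were higher) and Gbp7 in pro-B cells (24.5 and 39.0 CPM against 9.14, higher by 1.81 ± 0.43, edgeR adjusted p = 0.0061, where 0.456% were higher).

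**Figure D5:**
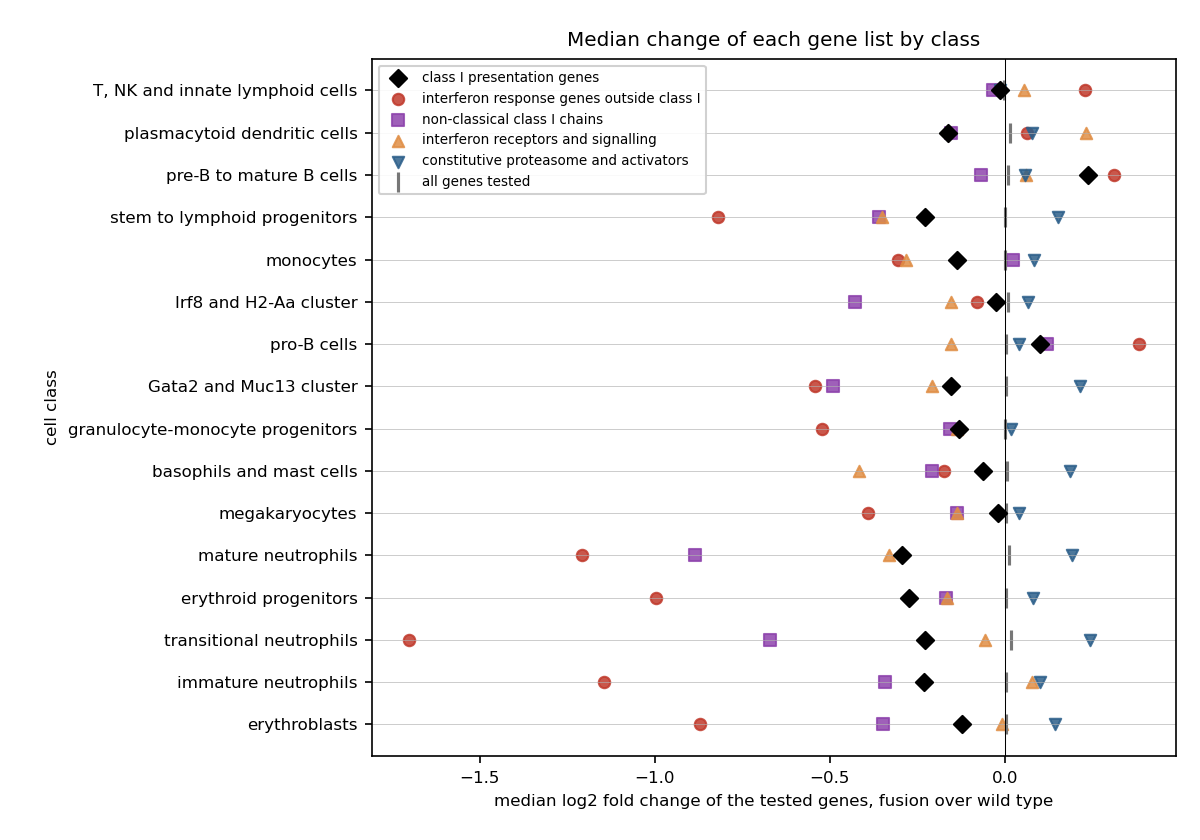
Median log2 fold change, fusion over wild type, of the class I presentation genes and 4 related gene lists in each class (rows), beside the median of all genes tested. Interferon response genes lie at -1.70 and -1.21 in transitional and mature neutrophils, and the class I genes lie at -0.23 and -0.29 in the same rows.

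Upstream of these, receptors and signalling genes of the interferon pathway passed as lower in 9 of 168 tests, in 6 classes. Over all gene and class tests 1.54% passed as lower. None of the receptor and signalling tests passed as higher in edgeR (2 at an unadjusted p under 0.05), and the median was -0.15. Ifngr1, the ligand-binding chain of the interferon gamma receptor, fell in the Gata2 and Muc13 cluster (159 and 165 CPM against 275, where 0.883% of genes passed and 0.684% as lower) and in monocytes (139.6 and 129 against 232). Irf9, a subunit of the transcription factor complex formed after type I interferon, fell in stem to lymphoid progenitors and transitional neutrophils. Jak2, a kinase of several cytokine receptors, fell by 1.16 ± 0.18 in basophils and mast cells, from 241 CPM in wild type to 105 and 111 (edgeR adjusted p = 0.0018, where 4.54% of genes passed and 3.44% as lower). That class also had the lowest H2-D1 log2 fold change.

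Summed over all cells, 3 of the 10 genes passed as lower (15.8% of genes passed and 11.8% as lower), and all 10 had both fusion libraries below wild type (40.7% of all genes). Psmb8 was 203 and 195 CPM against 303 (-0.60 ± 0.19, edgeR adjusted p = 0.0370), Psmb9 102 and 89.2 against 133 (-0.48 ± 0.16, edgeR adjusted p = 0.0488) and Nlrc5 4.46 and 4.64 against 7.23 (-0.67 ± 0.18, edgeR adjusted p = 0.0133). These sums mix the classes by their UMIs in each library. Erythroid progenitors, low for these genes, were 22.9% and 23.5% of fusion cells and 9.94% of wild-type cells. They held 46847785, 47837354 and 20750796 UMIs in fusion 1, fusion 2 and wild type, where all deposited barcodes held 97192347, 111836603 and 93262028. The UMI share, not the cell share, sets their weight in the sums. With plain CPM averaged over the classes at equal weight, the log2 fold changes were 0.045, 0.065 and -0.17 for Psmb8, Psmb9 and Nlrc5. The direction of Psmb8 and Psmb9 thus reversed in that mean, in which classes of high CPM count most. Within classes the median log2 fold changes were -0.13 for Psmb8 (10 classes below, 4 above) and -0.10 for Psmb9 (7 below, 4 above). The Psmb9 call was lost in 4 of 5 refits (adjusted p up to 0.0673), that of Psmb8 at a minimum of 2000 UMIs (0.0529) and that of Nlrc5 with DESeq2 (0.139).

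The genes whose levels followed the class I genes most closely across the 16 class means were taken from 6291 genes outside the lists with a mean of at least 20 CPM. Pearson's r with the mean standardized class I level was 0.966 for Galnt11, 0.935 for Stx6, 0.934 for Thap3, 0.924 for Grcc10 and 0.923 for Brd1. The points share the 3 libraries, and r is a description of likeness over these classes.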

How the data were processed

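Droplet 3' RNA sequencing (10x Genomics version 3.1) measured 3 bone marrow libraries. The authors deposited raw UMI counts per gene and barcode, and per the submitters' processing notes the build was GRCm38, the reads were demultiplexed by bcl2fastq 2.20.0.422, and Cell Ranger 5.0.1 is named, while the headers give 5.0.0. No deposited barcode held fewer than 500 UMIs, and intron and strand settings are not given in the sources used here.

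Barcodes under 1000 UMIs or 400 genes, or over 10% mitochondrial UMIs, were dropped, and doublets predicted by scrublet in scanpy 1.11.5 (expected rate 0.06) were removed per library (225, 318 and 194 in fusion 1, fusion 2 and wild type). Joint Leiden clustering (resolution 1) used 2000 variable genes, 30 components and 15 neighbours, without 115 class I and pathway genes. Clusters were named from the list that scored highest, if 3 or more of its markers were found in 10% of cells. The transitional neutrophil class, the stem to lymphoid class and the 2 unnamed clusters were settled after their leading genes were seen.

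Counts summed per library and class were tested with edgeR 4.0.16 (TMM, filterByExpr, quasi-likelihood test, genotype as the only term), Benjamini-Hochberg adjusted over all genes of a class. Only the pair of fusion libraries informs the spread (1 residual degree of freedom), and wild type is taken to share it. The SE is the absolute log2 fold change divided by the square root of edgeR's F statistic, not a spread measured between libraries. DESeq2 1.42.0 was an alternative. In simulated counts, all genes of a class were given the same spread between libraries (a common dispersion). There log2 changes of 1 were recovered for 62.2% of genes in erythroid progenitors (12720 genes). The shares were 37.9% in mature neutrophils (9028) and 18.1% in plasmacytoid dendritic cells (5028).

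The 10 genes and the 7 pathway lists were chosen with earlier results of these data known, and 4 listed genes are not in the files. All 10 genes are named wherever tested, along with up to 4 called genes per list and class, largest absolute log2 fold change first, and the 5 genes most like the class I profile. Among the called genes of the lists, not all are reported here. H2-Q7 is followed across classes because it held the most calls of its list. CPM are on TMM sizes unless called plain. Gene positions come from GENCODE M21 and promoters from RefSeq, where Tap2 and Nlrc5 had no entry.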

Additional observations from a re-analysis of the deposited data

Results flagged for a closer look

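The genotype effect differed between cell classes for 6 of the 10 genes in the edgeR interaction test over pairs of classes, in which 1.77% of all gene tests passed. H2-K1 differed in 23 of 120 pairs, 20 of them between a neutrophil class and a class outside neutrophils and always lower in the neutrophil class. The other 3 were erythroblasts against the Gata2 and Muc13 cluster, and pro-B cells against the Gata2 and Muc13 cluster and against stem to lymphoid progenitors.

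H2-D1 differed in 7 pairs, each with basophils and mast cells on the lower side. B2m differed in 5 pairs, each with pro-B cells on the higher side. Tap1 differed in 2 pairs, B cells being higher than immature neutrophils and than stem to lymphoid progenitors. Psmb8 differed in 2 pairs, basophils and mast cells being higher than erythroid progenitors (by 0.43 ± 0.10, edgeR adjusted p = 0.0068) and than immature neutrophils. Psmb9 differed in 2 pairs, basophils and mast cells being higher than erythroid progenitors and pro-B cells higher than stem to lymphoid progenitors (by 0.63 ± 0.17, edgeR adjusted p = 0.0088). Classes of a pair share their libraries, and pairs share classes, so these counts are not independent of each other.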

How the results depend on the processing

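The count of lower calls within classes was 2, both of H2-K1. It became 0 with DESeq2, 0 at Leiden resolution 2 and 0 with 1 shared cluster per class (neither called class then had a cluster filled by all libraries). It was 1 with predicted doublets kept, and that call was neither of the original 2. H2-K1 in mature neutrophils then had an edgeR adjusted p of 0.122, and no transitional class was tested. The other alternatives kept the count within 1.5 times, but not always the same calls. At Leiden resolution 0.5 H2-K1 missed in mature neutrophils (edgeR adjusted p = 0.0550) and no transitional class was tested. At a minimum of 2000 UMIs (0.0911) and with each cell on its own (0.0642) the transitional call was lost. In each of these settings H2-K1 passed in immature neutrophils. Both original calls stayed with DESeq2 size factors, no filter on low counts and equal cells per library. Over all cells the 3 lower calls became 1 with DESeq2 (Psmb9 and Nlrc5 lost) and 1 at a minimum of 2000 UMIs (Psmb8 and Psmb9 lost). Psmb9 was also lost with DESeq2 size factors (0.0673) and with no filter on low counts (0.0533). With plain CPM averaged over the classes at equal weight, in which classes of high CPM count most, Psmb8 (0.045) and Psmb9 (0.065) reversed. Among classes with both fusion libraries on the same side, the count above for Psmb8 in Psmb8 and Psmb5 (1) was 0 at Leiden resolution 2 and 2 to 3 when a fusion library was left out. The count above for Psmb9 in Psmb9 and Psmb6 (3) was 1 of 12 classes at resolution 0.5 and 3 to 6 leaving out a library. The count below for Psmb10 in Psmb10 and Psmb7 (3) was 5 to 6 leaving out a library. The count below for H2-K1 in H2-K1 and H2-D1 (5) was 3 of 12 classes at resolution 0.5 and 6 to 8 leaving out a library. The cause of these moves was not tested. Leaving out fusion replicate 1 or 2 gave H2-K1 log2 fold changes of -0.72 and -0.79 in mature, -0.76 and -0.97 in transitional and -0.76 and -0.56 in immature neutrophils, with no test. Assigning each cell on its own gave H2-K1 share differences of -5.85 percentage points in immature and -9.81 in transitional neutrophils. No paired analysis was possible because the labels give no number that pairs libraries and the wild type is 1 library. The limit is 3 libraries: in simulated plasmacytoid dendritic cell counts (5028 genes) 18.1% of log2 changes of 1 were recovered, and Nlrc5 had at most 7 UMIs per library in the neutrophil classes.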

Other observations

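In pro-B cells 4 of the 10 class I genes had both fusion libraries above wild type, 2 below and 4 overlapping, and in B cells 6 of 9 were above, 1 below and 2 overlapping. In pro-B cells Psmb10 was 163 and 156 CPM in fusion against 122 (0.38 ± 0.24), Psmb9 193 and 197 against 157 (0.31 ± 0.24), and the median of the 10 genes was 0.10. In B cells Psmb8 was 392.5 and 381 CPM against 292 (0.40 ± 0.27). None of these passed in edgeR, and the classes held 144, 152 and 323 pro-B cells and 82, 84 and 209 B cells in fusion 1, fusion 2 and wild type.

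Among the listed factors of class I transcription, Rfxap, a subunit of the RFX complex that binds the X box, had both fusion libraries above wild type in 12 of 16 classes (median log2 fold change 0.21), and Ezh2, the histone methyltransferase of the PRC2 complex, had both below in 10 (median -0.09). Neither passed in a class. Of genes tested in every class, 10.8% were above in at least 11 classes and 1.48% in at least 14, and 6.16% were below in at least 12. The shares at 12 above and at 10 below were not computed, so neither count is called rare. The 16 genes of the G2 and M phases, a list included to follow cycling, passed as lower in 4 of 247 tests (median 0.01), near the 1.54% of all tests that passed as lower: Cenpe and Cenpf in basophils and mast cells, Cenpe in stem to lymphoid progenitors and Top2a in transitional neutrophils. Rfxap and Ezh2 were chosen after their values were seen.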
